A study of Mus musculus with 12 samples.

Results

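Reads of 10 genes for chaperones of the endoplasmic reticulum (ER) were followed through 12 mouse RNA-seq libraries. The genes, Hspa5, Hsp90b1, Pdia4, Pdia6, Calr, Dnajb9, Sdf2l1, Manf, Hyou1 and Creld2, were taken by symbol from the 25655 genes of each deposited table, and all 10 were found and passed the filter on low counts in both tissues. The 4 groups, each of 3 libraries, were whole brains of (P)RR_CKO embryos, whole brains of control embryos, primary neurospheres of (P)RR_CKO embryos and primary neurospheres of control embryos. The series title names a deficiency of the (pro)renin receptor, encoded by Atp6ap2, that is specific to neural stem cells, and the knockout is called CKO here. Sample titles carry fy/cre for CKO and fy/- for control, and the genotype entry of controls reads Wildtype. Brains were taken at embryonic day 15 and neurospheres, floating clusters grown from forebrain neural stem cells, came from embryonic day 16. All samples were labelled male and C57BL/6J. The promoter that drives Cre is not named by the labels. They also leave open if the 3 libraries of a group come from different embryos or cultures, so p-values cover the spread between these libraries, which may be technical.

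ER chaperones bind newly made secreted and membrane proteins, hold them soluble, and help them fold and form disulfide bonds. When unfolded proteins build up, the unfolded protein response, signalled by the sensors ATF6, IRE1 and PERK, raises the transcription of many of these genes. ATF6 and NF-Y act on their promoters through the ER stress response element, or ERSE.

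Promoters of 8 of the 10 genes were found among the RefSeq windows on GRCm38.p6, which run from 250 bases before to 50 bases after each start site. The ERSE, searched on both strands as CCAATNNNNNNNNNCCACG, was present in 5 of these 8 windows and in 39 of all 32851 windows (0.119%). The matches are shown because this element is the textbook route from ER stress to chaperone promoters. Their number is therefore background and no result of these data. Each stretch is written 5′ to 3′ in the direction of its gene, with the match in capitals and 20 bases on each side. A match called reverse reads as the motif on the opposite strand.
Hspa5, forward, chr2:34772005-34772063, plus strand: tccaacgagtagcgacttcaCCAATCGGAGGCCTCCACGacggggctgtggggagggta
Calr, reverse, chr8:84847055-84847113, minus strand: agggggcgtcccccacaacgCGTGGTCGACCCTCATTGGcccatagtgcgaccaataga
Hsp90b1, forward, chr10:86705618-86705676, minus strand: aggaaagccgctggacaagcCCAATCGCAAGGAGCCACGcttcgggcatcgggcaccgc
Hsp90b1, reverse, chr10:86705513-86705571, minus strand: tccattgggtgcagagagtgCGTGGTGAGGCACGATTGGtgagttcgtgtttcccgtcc
Pdia6, forward, chr12:17266471-17266529, plus strand: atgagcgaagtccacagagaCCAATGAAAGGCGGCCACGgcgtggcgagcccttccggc
Creld2, reverse, chr15:88819500-88819558, plus strand: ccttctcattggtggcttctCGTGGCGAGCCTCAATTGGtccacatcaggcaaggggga

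The matches ended 46 bases before the start site in Hspa5, 143 in Calr, 193 and 88 in Hsp90b1, 79 in Pdia6 and 107 in Creld2. No match lay in the windows of Pdia4, Dnajb9 or Sdf2l1, and Manf and Hyou1 had no window to search. The CCAAT box, which is the first part of the ERSE and so overlaps it, was in all 8 windows, against 37.4% of all windows. Pdia4 and Sdf2l1, also without a match, were higher in CKO neurospheres, and a link between motif and direction was not tested. The upstream stretch of Dnajb9 is shown because Dnajb9 alone had lower values in CKO neurospheres, and only its CCAAT box is in capitals.
Dnajb9, forward, chr12:44210069-44210188, minus strand: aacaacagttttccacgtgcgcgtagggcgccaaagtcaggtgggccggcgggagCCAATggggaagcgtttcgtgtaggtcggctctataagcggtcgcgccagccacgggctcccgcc

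Further motifs were searched on both strands and were in 0 of the 8 windows. They were ERSE-II (ATTGGNCCACG, 0.037% of all windows), the UPRE bound by ATF6 and XBP1 (TGACGTGG, 0.676%) and the ATF4 element CARE (TGATGNAA, 3.97%). Among other genes with an ERSE in their window, 13 were tested in each tissue. Of those, 0 were called in CKO brains by edgeR or DESeq2, with 4 at an unadjusted p under 0.05, against 8.76% of all genes, and a median log2 fold change of 0.14. In CKO neurospheres 1 was called higher and 2 lower, with a median of 0.00, where 14.7% of all genes were called higher and 12.0% lower.

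Depth differed between tissues. Brain libraries held 5669338 to 6675874 exon reads and neurosphere libraries 12382975 to 18636787. Atp6ap2 itself averaged 64.3 ± 3.56 CPM in CKO brains and 70.0 ± 7.27 CPM in control brains (SD, n = 3 each), with overlapping libraries (edgeR adjusted p = 0.792). It averaged 54.9 ± 6.84 CPM in CKO neurospheres and 96.2 ± 0.954 CPM in control neurospheres, with -0.81 ± 0.11 as log2 fold change (SE; adjusted p = 0.00965). The neurosphere library labelled control 1 held 1 read over 4 Y-linked genes, although it was labelled male, while the other neurosphere libraries held 1767 to 2992. Neurosphere calls of the chaperones and of the ER, ATF4, heat shock and mitochondrial lists are therefore also given without it. CPM are exon counts scaled to library size, with TMM factors set within a tissue, and adjusted p-values come from edgeR's quasi-likelihood test over all genes of a tissue, with a gene called below 0.05.

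The CKO libraries gave a larger share of their exon reads to the 10 chaperones in both tissues. The 10 genes together took 0.192, 0.193 and 0.186% of exon reads in CKO brains, against 0.153, 0.146 and 0.160% in control brains. They took 0.286, 0.256 and 0.265% in CKO neurospheres, against 0.181, 0.192 and 0.189% in control neurospheres. The lowest CKO library lay above the highest control library in each tissue. In bulk RNA a change in the mix of cells and a change in RNA per cell cannot be told apart.

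**Figure D1:**
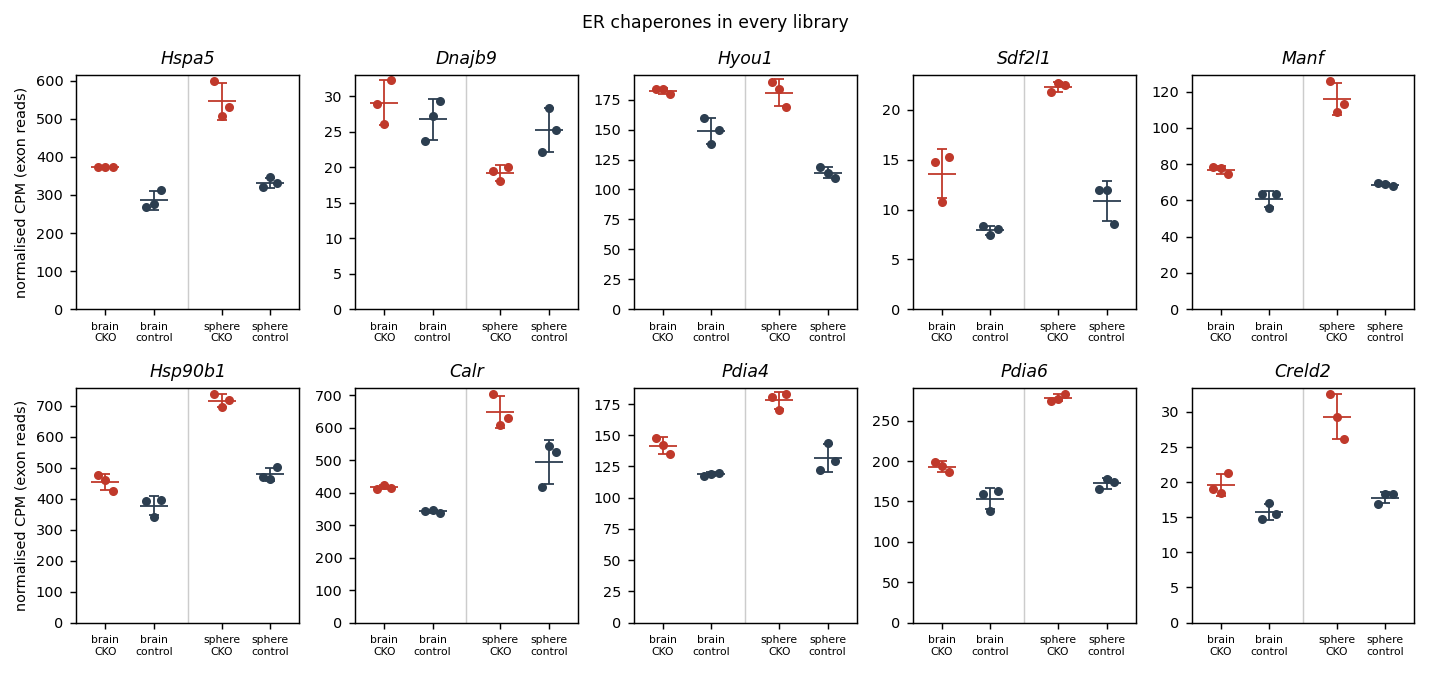
Normalised CPM of exon reads (y axis, starting at 0) for each chaperone gene in the 12 libraries, with CKO left of control in brain and in neurospheres (labelled sphere). Points are libraries, and lines are means with the SD over 3 libraries. The CKO points lie above the control points in 9 of 10 panels in each tissue, and those of Dnajb9 lie below in neurospheres and overlap in brain.

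In CKO brains, Hspa5 and Calr were higher than in control brains, by 1.31-fold and 1.22-fold. The other 8 genes had positive log2 fold changes of 0.12 to 0.77 but did not pass the test. The count of 2 higher of 10 stands against 0.243% of all 13557 genes called higher, and 0 of 10 were called lower, against 0.199% of all genes. At an unadjusted p under 0.05 there were 9, each with a positive log2 fold change, against 4.24% of all genes higher at that threshold. All 10 log2 fold changes were positive, against 50.9% of all genes, and their median was 0.31, against 0.00 over all genes. In 9 of 10 genes the CKO libraries all lay above the control libraries, which held for 7.24% of all genes, and in 0 the CKO libraries all lay below, which held for 7.16%.

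Hspa5 encodes BiP, the Hsp70 chaperone of the ER lumen, which also binds the stress sensors and holds them inactive. It had 374, 373 and 374 CPM in CKO brains, against 268, 276 and 314 CPM in control brains. The CKO brains were nearly identical to each other and all above the controls. The log2 fold change stood at 0.39 ± 0.07 (SE; adjusted p = 0.0427). Hyou1, a large Hsp70 relative that exchanges the nucleotide of BiP, had 184, 184 and 180 CPM in CKO brains, against 159, 138 and 150 CPM in control brains. Its groups did not overlap, and its adjusted p was 0.118. Sdf2l1, which works with BiP and its J-domain partners, had 14.8, 10.8 and 15.3 CPM in CKO brains, against 8.34, 7.45 and 8.04 CPM in control brains. It had the largest log2 fold change of the 10 in brain, 0.77 ± 0.18 (adjusted p = 0.147), from 42 to 88 reads per library. Manf, a secreted protein kept in the ER by BiP, had 78.6, 77.6 and 74.4 CPM in CKO brains, against 63.5, 55.7 and 63.4 CPM in control brains, without overlap (adjusted p = 0.129). Dnajb9 encodes ERdj4, a J-domain partner of BiP that also takes part in degradation. It had 28.8, 26.0 and 32.3 CPM in CKO brains, against 23.7, 27.1 and 29.3 CPM in control brains. It was the only one of the 10 whose brain groups overlapped (log2 fold change 0.12 ± 0.13; adjusted p = 0.873).

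Among the other chaperones, Calr encodes calreticulin, a lectin chaperone that also stores calcium. It had 412, 424 and 415 CPM in CKO brains, against 344, 345 and 336 CPM in control brains, and the gap between groups was several times the range within each. Its log2 fold change was 0.29 ± 0.05 (adjusted p = 0.0461). Hsp90b1, the Hsp90 of the ER, known as GRP94, had 477, 460 and 424 CPM in CKO brains, against 392.4, 342 and 396 CPM in control brains (adjusted p = 0.195). Pdia4 had 148, 143 and 135 CPM in CKO brains, against 118, 119 and 120 CPM in control brains (adjusted p = 0.165). Pdia4 and Pdia6 encode protein disulfide isomerases, which form and rearrange disulfide bonds. Pdia6 had 199, 194 and 187 CPM in CKO brains, against 159, 139 and 163 CPM in control brains, with an adjusted p of 0.0976. Creld2, an ER-resident and secreted protein with EGF-like repeats, had 19.0, 18.5 and 21.4 CPM in CKO brains, against 14.7, 17.03 and 15.4 CPM in control brains (adjusted p = 0.486). In all 4 of these genes the CKO brains lay above the controls without overlap.

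Both brain calls ended when any 1 brain library was left out. Hspa5 then had adjusted p-values of 0.0519 to 0.205 and Calr of 0.0519 to 0.226, while their log2 fold changes stayed within 0.34 to 0.46 and 0.28 to 0.30. With 1 library left out, 0 of 10 genes were called by edgeR and 8 or 9 were higher at an unadjusted p under 0.05, against 3.09 to 4.33% of all genes. DESeq2 called 3 of 10 higher on all 6 libraries, Hspa5, Calr and Pdia6, against 0.342% of all genes, while the fit of all 12 libraries together called 0. In the authors' deposited table, the FDR was 0.00374 for Hspa5, 0.0298 for Calr and 0.0543 for Pdia6.

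In CKO neurospheres, 8 of the 10 genes were higher than in control neurospheres, by 1.35-fold for Pdia4 to 2.06-fold for Sdf2l1. Calr and Dnajb9 did not pass the test. The count of 8 stands against 14.7% of all 13316 genes called higher, and 0 of 10 were called lower, against 12.0% of all genes. At an unadjusted p under 0.05 all 10 passed, 9 higher, against 22.3% of all genes, and Dnajb9 lower, against 20.6%. DESeq2 called 9 higher, against 17.2% of all genes, and 0 lower. Of the 10, 9 log2 fold changes were positive, against 48.5% of all genes, and the median was 0.68, against -0.02 over all genes. In 9 of 10 the CKO libraries all lay above the controls, against 25.3% of all genes, and in Dnajb9 all lay below, against 22.8%.

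Of BiP and its partners, Hspa5 had 599, 507 and 531 CPM in CKO neurospheres, against 320, 346 and 331 CPM in control neurospheres. The lowest CKO library was well above the highest control, and the log2 fold change was 0.71 ± 0.10 (adjusted p = 0.0101). Hyou1 had 190, 184 and 169 CPM in CKO neurospheres, against 119, 113 and 109 CPM in control neurospheres, a log2 fold change of 0.67 ± 0.09 (adjusted p = 0.00924). Sdf2l1 had 21.8, 22.7 and 22.5 CPM in CKO neurospheres, against 11.9, 12.0 and 8.53 CPM in control neurospheres. It again had the largest log2 fold change of the 10, 1.04 ± 0.17 (adjusted p = 0.0124). Manf had 126, 109 and 113 CPM in CKO neurospheres, against 69.4, 69.0 and 67.7 CPM in control neurospheres, a log2 fold change of 0.75 ± 0.09 (adjusted p = 0.00852). Dnajb9 had 19.5, 17.99 and 20.1 CPM in CKO neurospheres, against 22.1, 28.3 and 25.2 CPM in control neurospheres. It was the only one of the 10 with lower values in every CKO neurosphere library (log2 fold change -0.39 ± 0.13; adjusted p = 0.0689).

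Hsp90b1 had 738, 695 and 718 CPM in CKO neurospheres, against 470, 463 and 503 CPM in control neurospheres (log2 fold change 0.58 ± 0.09; adjusted p = 0.0110). Calr had 704, 608 and 630 CPM in CKO neurospheres, against 417, 542 and 524 CPM in control neurospheres. The groups did not overlap, but the control library labelled 1 was far below the other controls, and the log2 fold change of 0.39 ± 0.13 did not pass (adjusted p = 0.0679). Of the disulfide isomerases, Pdia4 had 181, 170 and 183 CPM in CKO neurospheres, against 122, 144 and 130 CPM in control neurospheres (log2 fold change 0.44 ± 0.09; adjusted p = 0.0206). Pdia6 had 275, 277 and 284 CPM in CKO neurospheres, against 165, 178 and 175 CPM in control neurospheres. Its 0.69 ± 0.08 had the smallest adjusted p of the 10, 0.00847. Creld2 had 32.5, 29.3 and 26.2 CPM in CKO neurospheres, against 16.9, 18.3 and 18.3 CPM in control neurospheres (log2 fold change 0.72 ± 0.12; adjusted p = 0.0138).

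Without the control library labelled 1, the same 8 genes were called higher and Dnajb9 was called lower (log2 fold change -0.49; adjusted p = 0.0233), while Calr stood at 0.27 (adjusted p = 0.0689). Of all genes, 21.1% were called higher in that fit and 17.7% lower. Without either neurosphere library numbered 1, Calr was called too (0.21; adjusted p = 0.0343), which made 9 higher, against 28.1% of all genes, and Dnajb9 lower, against 27.3%. Without CKO 2 or without control 3, edgeR called 0 of the 10 and 0 of all genes, with 9 of the 10 higher at an unadjusted p under 0.05 in each case, against 17.3% of all genes without CKO 2 and 16.3% without control 3. The 8 called genes then had log2 fold changes of the same sign, and the adjusted p of Pdia6 and Manf reached 0.0570. Without control 2, 5 were called, Hspa5, Pdia6, Sdf2l1, Manf and Hyou1, against 3.94% of all genes called higher. Without CKO 3 the 7 called left out Pdia4, against 6.31% of all genes. In the authors' deposited comparison table, 7 of 10 had an FDR below 0.05, with 0.121 for Pdia4, 0.235 for Calr and 0.444 for Dnajb9.

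**Figure D2:**
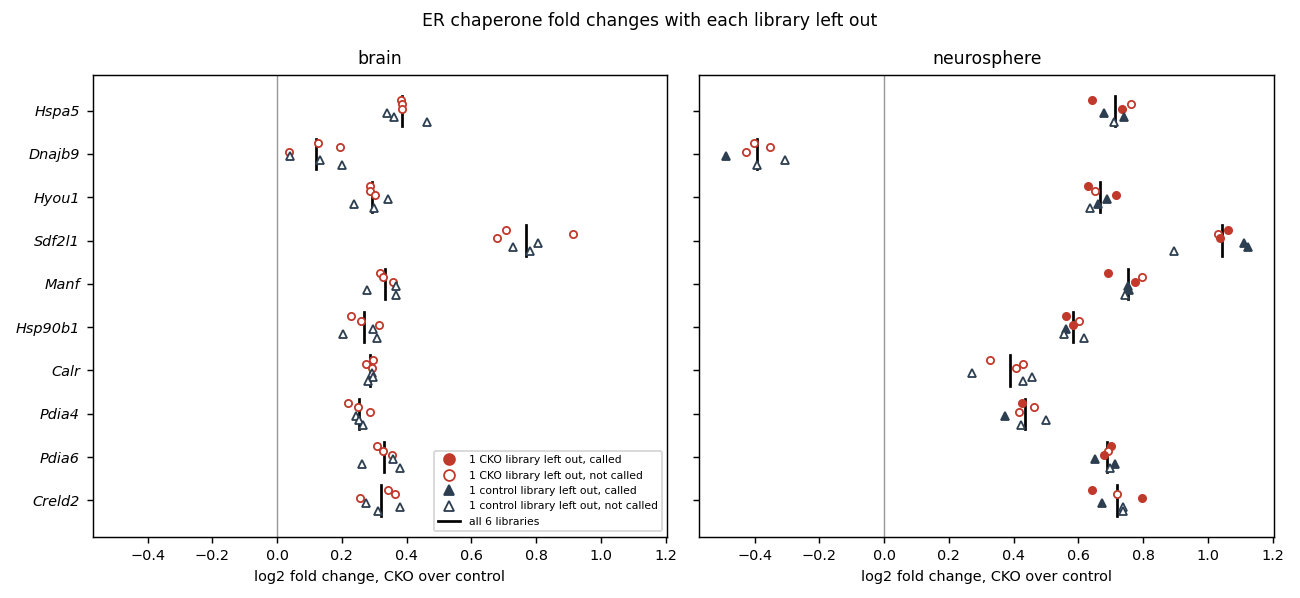
Log2 fold change of CKO over control (x axis) for each chaperone gene with 1 of 6 libraries left out at a time, in brain and neurospheres. Circles leave out a CKO library, triangles a control library, filled symbols had an adjusted p below 0.05, and black bars are the values from all 6 libraries. All brain symbols are open, and each gene keeps its sign in both tissues.

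The log2 fold change of CKO over control was larger in neurospheres than in brain for Manf, Hyou1 and Pdia6. Tissue, embryonic day, culture and the depth and intron share of the libraries cannot be told apart in such a difference. Atp6ap2 itself was lower in CKO neurospheres (-0.81) but was not called in CKO brains (-0.12). In 1 fit of all 12 libraries, with spread shared between tissues, the difference of log2 effects, neurosphere minus brain, was tested as an interaction. It was 0.42 ± 0.11 for Manf (edgeR adjusted p = 0.0310), 0.38 ± 0.11 for Hyou1 (0.0369) and 0.36 ± 0.10 for Pdia6 (0.0414). These adjusted p-values rest on the shared spread, which changed the calls within each tissue. The shared fit called 1 gene higher in CKO brains, against 33 from the brain libraries alone. In CKO neurospheres it called 2935 genes higher, against 1958 from the neurosphere libraries alone. The 3 called of 10 stand against 7.21% of all 14415 genes with a higher effect in neurospheres. With a lower effect edgeR called 0 of 10, against 6.06% of all genes, and DESeq2 called 0 of 10, against 10.1%. For Dnajb9, the only gene of the 10 with a lower effect, the difference was -0.51 ± 0.18 (unadjusted p = 0.0170 in edgeR; adjusted p = 0.0838), and for Calr it was 0.11 ± 0.14 (adjusted p = 0.654). These calls were close to the threshold. With 1 of the 12 libraries left out, Hyou1 was called in 3 fits, Manf in 2 and Pdia6 in 1, and 0 of the 10 were called in 9 of the 12 fits. Without a filter on low counts 0 were called, and with RLE size factors or with a replicate block Manf and Hyou1 were. Without the neurosphere library labelled control 1, Manf, Hyou1 and, in the lower direction, Dnajb9 were called, against 13.2% of all genes higher and 14.9% lower. DESeq2 called Hsp90b1 besides Manf, Hyou1 and Pdia6, against 9.56% of all genes. A larger effect in neurospheres was not particular to the ER chaperones, whose median difference was 0.33. The edgeR fit also called 5 of 14 cytosolic heat shock genes higher (median 0.43) and 3 of 10 mitochondrial chaperones (0.37). Of 16 cell cycle genes it called 7 higher (1.43), with 0 lower in these lists. Of 25 ATF4 targets 1 was called higher and 6 lower (-0.33).

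**Figure D3:**
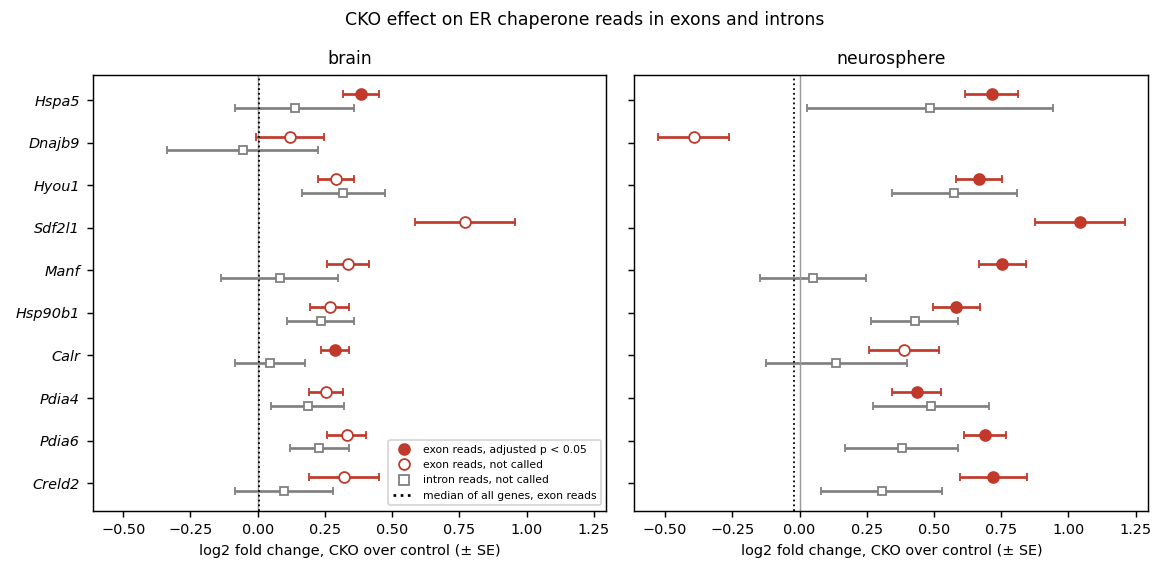
Log2 fold change of CKO over control (x axis) with its SE for each chaperone gene, in brain and neurospheres. Red circles are exon reads, filled where the adjusted p was below 0.05, grey squares are intron reads, and the dotted line is the median over all genes in exon reads. The neurosphere circles of 8 genes are filled, those of Hspa5 and Calr are filled in brain, and no intron value was called.

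Reads within genes but outside exons, which include RNA not yet spliced, were fitted in the same way. Their share of all reads assigned to genes was 63.8 to 65.5% in brain libraries and 7.64 to 14.1% in neurosphere libraries. Of the 10 genes, 9 passed the filter in brain and 8 in neurospheres; Sdf2l1 failed in both and Dnajb9 in neurospheres. In brain 0 of 9 were called higher by edgeR, against 0.138% of all genes, with 0 at an unadjusted p under 0.05 and 0 called by DESeq2. Of these 9, 8 log2 fold changes were positive, against 50.6% of all genes, with a median of 0.14. In neurospheres 0 of 8 were called higher by edgeR, against 1.19% of all genes, with 2 higher at an unadjusted p under 0.05, against 11.6% of all genes, and 0 called by DESeq2. All 8 log2 fold changes were positive, against 48.5% of all genes, with a median of 0.40. Without control 1, 0 were called and 2 were higher at an unadjusted p under 0.05, against 16.8% of all genes. The median leaned on CKO 1. Without that library it was 0.25, with Hspa5 at -0.172 and Calr at -0.175, and without both libraries numbered 1 it was 0.20.

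Intron reads of Hyou1 stood at 9.72, 8.20 and 8.53 CPM in CKO brains, against 8.03, 6.93 and 6.23 CPM in control brains. In neurospheres they were 26.0, 25.3 and 28.0 CPM in CKO and 18.7, 16.5 and 17.7 CPM in control, also without overlap. The log2 fold changes of its intron reads, 0.32 ± 0.15 and 0.58 ± 0.23, were near those of its exon reads, 0.29 and 0.67. For Manf the intron value in neurospheres was 0.05 ± 0.20, beside 0.75 for its exon reads. In brain libraries Manf had 337 to 579 intron reads, beside 314 to 483 exon reads. How much of its intron reads comes from unspliced Manf RNA was not tested. The intron reads of Hspa5 in CKO neurospheres were 27.8, 9.73 and 10.8 CPM, against 14.6, 9.07 and 10.9 CPM in control neurospheres, so CKO 1 alone set their mean apart.

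Levels per kb of listed exon length, on 1 scale for all 12 libraries, ran in much the same order in every group. Calr was the highest, with 180 ± 3.86 CPM per kb in CKO brains and 149 ± 2.99 in control brains, and 312 ± 24.4 in CKO neurospheres and 239 ± 34.3 in control neurospheres (SD, n = 3 each). Hsp90b1, Hspa5, Pdia6 and Pdia4 followed in that order in all 4 groups. Neighbours among these 5 did not overlap, except for Hspa5 and Pdia6 in control brains, at 72.2 ± 5.82 and 67.0 ± 5.41. Hyou1 and Manf came next and overlapped in neurospheres of both genotypes. Creld2, Sdf2l1 and Dnajb9 were the 3 lowest. Sdf2l1 was last in both control groups, at 6.81 ± 0.378 in brain and 10.3 ± 1.86 in neurospheres, where it overlapped Dnajb9. In CKO neurospheres Sdf2l1 had 21.2 ± 0.447 CPM per kb, close to Creld2 at 22.6 ± 2.49, and Dnajb9 was last at 7.93 ± 0.430.

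Between tissues, 8 of the 10 genes were higher in control neurospheres than in control brains, against 34.9% of all genes called higher. The call of Creld2 (0.33) ended without brain control 1, brain control 3, neurosphere control 2 or neurosphere control 3, with adjusted p-values of up to 0.0772, and DESeq2 did not make it either (adjusted p = 0.0736), which left 7. Calr had the largest log2 fold change, 0.69 ± 0.10 (edgeR adjusted p = 8.65e-05), and Sdf2l1 and Hsp90b1 had 0.59 and 0.50. Hyou1 was lower in control neurospheres, by a log2 fold change of -0.24 ± 0.07 (adjusted p = 0.0141), against 35.5% of all genes called lower. This call ended without the brain library control 1 (-0.17; adjusted p = 0.0916) and without the filter on low counts (-0.16; adjusted p = 0.119). Dnajb9 had 0.07 ± 0.13 (adjusted p = 0.646). In CKO neurospheres against CKO brains, 8 genes were again higher, against 38.4% of all genes, with 0.82 ± 0.08 for Hsp90b1 and 0.75 ± 0.08 for Manf. Dnajb9 was lower there, at -0.44 ± 0.13 (adjusted p = 0.00858), against 37.7% of all genes, and this call ended without CKO brain 3 (-0.34; adjusted p = 0.0513). Hyou1 had 0.15 ± 0.07 (adjusted p = 0.0939) and was called higher without CKO neurosphere 3 (0.20; adjusted p = 0.0402). Tissue, embryonic day, culture and the depth and intron share of the libraries cannot be told apart in these comparisons.

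After each tissue's mean was taken off, 9 of the 10 genes moved together over the 12 libraries. The Pearson r of a gene with the mean of the other 9, on standardised log2 CPM, was 0.98 for Hspa5 and 0.91 to 0.96 for the other 8 of these genes. For Dnajb9 it was -0.49. These values describe libraries that share 2 genotypes, and the genotype contrast enters them. By the same measure, the genes most like the mean of the 10, among 9473 ranked, were Arf1 (r = 0.98), Tmed2 (0.97), Mthfd2 (0.96), Morf4l2 (0.96) and Sec61b (0.96). Arf1 and Tmed2 act in vesicle traffic between ER and Golgi, Mthfd2 is a mitochondrial enzyme of folate metabolism, Morf4l2 belongs to chromatin complexes, and Sec61b is a subunit of the translocon through which proteins enter the ER. All 5 were called higher in CKO neurospheres (log2 fold changes 0.40 to 1.34), and Mthfd2 and Morf4l2 also in CKO brains (0.69 and 0.31).

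The genes around the chaperones were read from 4 lists of ER function. Counts of called genes stand against 14.7% of all genes higher and 12.0% lower in CKO neurospheres, and 0.243% higher and 0.199% lower in CKO brains. Among 25 tested genes of translocation into the ER and of N-glycosylation, 12 rose and 1 fell in CKO neurospheres, with a median log2 fold change of 0.38. Stt3a, a catalytic subunit of the oligosaccharyltransferase, had 0.74 ± 0.10 (edgeR adjusted p = 0.0102), Srpr, the receptor of the signal recognition particle, 0.65 ± 0.09 (0.0102), and Rpn2, another transferase subunit, 0.51 ± 0.08 (0.0127). In CKO brains 1 of these 25 rose, Srpr (0.48 ± 0.08; adjusted p = 0.0436), and the median was 0.14. Among other folding factors of the ER, 10 of 35 rose and 1 fell in CKO neurospheres, with a median of 0.23. Pdia5 and Txndc5, both of the disulfide isomerase family, had 1.03 ± 0.19 and 0.65 ± 0.08, Serpinh1, the collagen chaperone, 0.57 ± 0.16, and Ero1b, which reoxidises disulfide isomerases, -0.72 ± 0.14. In CKO brains 0 of 34 were called by edgeR and 0 by DESeq2, with 10 higher at an unadjusted p under 0.05, against 4.24% of all genes, and a median of 0.12.

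Genes of ER-associated degradation, which retrieves misfolded proteins for the proteasome, had a median of 0.00 in CKO neurospheres and 0.07 in CKO brains. In neurospheres 5 of 20 rose, against 14.7% of all genes, and 1 fell, against 12.0%. The one that fell was Os9, a lectin that delivers misfolded glycoproteins (-0.76 ± 0.15; adjusted p = 0.0169), and Nploc4, a cofactor of the p97 ATPase, was among those that rose (0.51 ± 0.10; adjusted p = 0.0167). In brains edgeR and DESeq2 called 0. At an unadjusted p under 0.05, 3 were higher and 1 lower, against 575 higher and 612 lower of all 13557 genes. Of 11 sensors and transcription factors of the unfolded protein response, 1 rose in CKO neurospheres. This was Atf4 (0.46 ± 0.11, edgeR adjusted p = 0.0261), and the share was no higher than the 14.7% of all genes. In CKO brains Atf4 rose by 0.57 ± 0.09 (adjusted p = 0.0327), and so did Eif2ak3, which encodes PERK (0.58 ± 0.08; adjusted p = 0.0138). Xbp1 had 0.08 in neurospheres and 0.18 in brains, and Atf6 had -0.25 and 0.16, and none of these values was called. Ddit3 was not analysed here.

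Outside the ER lists, 10 of 24 ATF4 targets rose in CKO brains, against 0.243% of all genes, with a median of 0.51. In CKO neurospheres 3 of 25 rose, a share no higher than the 14.7% of all genes, with a median of 0.02. The chaperones had their larger median in neurospheres, 0.68, beside 0.31 in brains. Cytosolic heat shock genes rose in 9 of 14 cases in CKO neurospheres (median 0.45), among them Stip1, which links Hsp70 and Hsp90, with 0.85 ± 0.08, and Bag3, a partner of Hsp70, with 0.82 ± 0.14. Mitochondrial chaperones rose in 7 of 10 cases (median 0.40), led by Hspd1, the mitochondrial Hsp60, with 1.17 ± 0.12 (edgeR adjusted p = 0.00795). In CKO brains edgeR and DESeq2 called 0 of the 14 and 0 of the 10, with medians of 0.07 and 0.00. At an unadjusted p under 0.05, 1 and 2 were higher, against 4.24% of all genes. All neurosphere calls of these lists ended without CKO 2 or without control 3, since no gene of the whole table was called in those fits. Without control 1, 14 genes of translocation and glycosylation rose and 2 fell, 13 other folding factors rose and 3 fell, 6 degradation genes rose and 2 fell, 3 sensors or factors rose, and 4 ATF4 targets rose and 2 fell, while 9 heat shock genes and 7 mitochondrial chaperones rose, against 21.1% of all genes higher and 17.7% lower in that fit. In brain, with 1 library left out, the calls were 0 for translocation and glycosylation, 0 to 2 for the sensors and factors and 1 to 5 for the ATF4 targets.

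**Figure D4:**
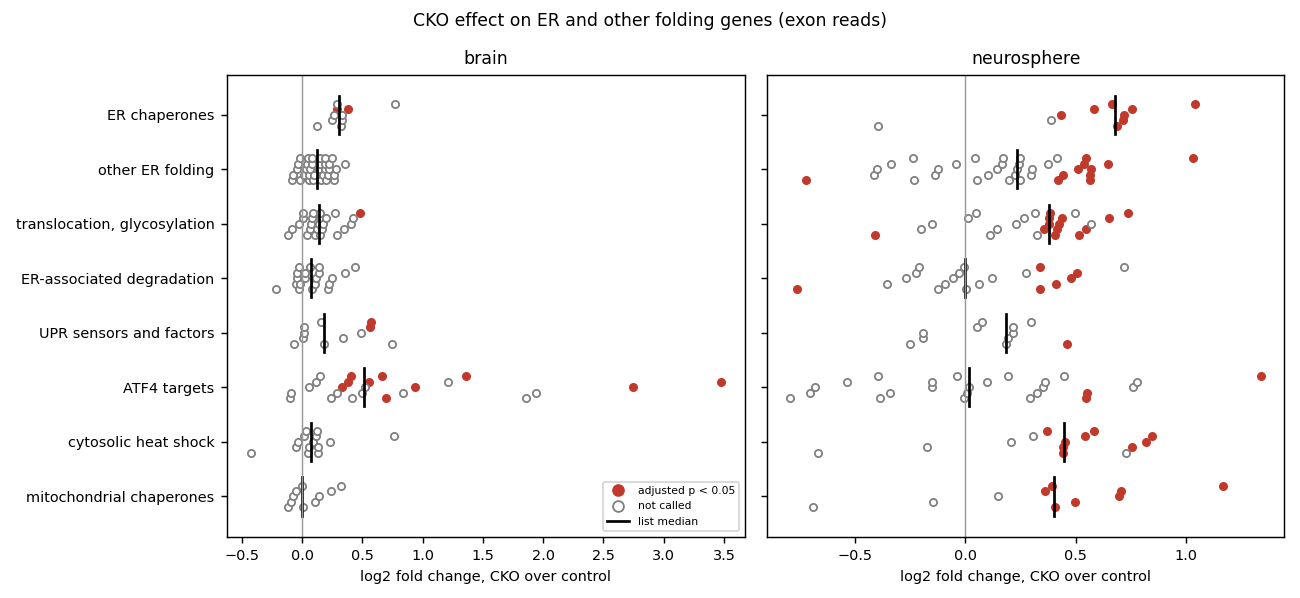
Log2 fold change of CKO over control (x axis) of each tested gene in 8 lists, in brain and neurospheres, on separate scales. Filled red points had an adjusted p below 0.05, open points did not, and black bars are list medians. Of these 8 lists, the chaperones have the largest median in neurospheres, 0.68, and the ATF4 targets in brain, 0.51.

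Markers of cell types and growth also differed between the groups, and their counts stand against the same shares, 14.7% of all genes higher and 12.0% lower in CKO neurospheres and 0.243% and 0.199% in CKO brains. Radial glial markers summed to 9070 to 10825 CPM in neurospheres and 2046 to 2532 CPM in brains, and blood markers to at most 2.92 CPM in neurospheres. All 16 cell cycle genes rose in CKO neurospheres, with a summed level of 3560 to 3737 CPM, against 724 to 1867 CPM in control neurospheres. Of 10 oligodendrocyte lineage markers 8 fell, with sums of 1612 to 1758 CPM in CKO and 1847 to 3676 CPM in control neurospheres. Of 8 astrocyte markers 3 fell, with sums of 694 to 1558 CPM in CKO and 1353 to 4682 CPM in control neurospheres. Of 12 neuronal markers 6 fell and 1 rose, with sums of 1345 to 2098 CPM in CKO and 2179 to 2562 CPM in control neurospheres. None of the markers of these 4 lists was at 0. Of 8 tested pericyte and meningeal markers 2 rose, with sums of 122 to 1517 CPM in CKO and 122 to 235 CPM in control neurospheres, where Kcnj8 was at 0. In brain, 12 microglial markers summed to 92.3 to 120 CPM in CKO libraries and 58.9 to 79.7 CPM in control libraries, with none at 0 and 1 called higher. Of 12 radial glial markers 2 fell in brain and of 7 astrocyte markers 3 fell. The 16 cell cycle genes had positive log2 fold changes in brain without a call, with sums of 1576 to 2146 CPM in CKO and 1269 to 1681 CPM in control. The part of these shifts in the chaperone values was not tested. All neurosphere marker calls ended without CKO 2 or without control 3, where 0 genes of the whole table were called. Marker calls without control 1 are not given here. In brain, 3 to 36 genes of the whole table were called with 1 library left out.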

How the data were processed

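Per the labels' protocols, ribosomal RNA was removed from 500 ng of input RNA before stranded library preparation and sequencing on a NextSeq 500. The deposited values used are raw counts per gene (reads over exons, uniquely placed, over junctions, in introns), per the file headers. The authors' deposited table also gives an EDGE p-value with its FDR and a signed fold-change score. Builds named in the submitters' processing notes are GRCm38 and mm10, but the listed coordinates do not match GRCm38. Another 120 columns of per-sample values were not used. The chaperones and all lists were chosen with earlier results of these data known.

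Exon counts were fitted per tissue in edgeR 4.0.16 (R 4.3.3) with TMM, filterByExpr, robust quasi-likelihood fits, two-sided tests and Benjamini-Hochberg adjustment. The interaction and tissue comparisons used 1 fit of 12 libraries. SE is the absolute log2 fold change over the square root of F. The fits were also run on simulated counts, with the same spread for all genes and larger planted changes than any chaperone had in brain. That run was no test of changes as small as those in brain. Each list named at most 4 called genes with the largest changes; likeness used genes of at least 10 CPM, with a prior count of 2. Alternatives included DESeq2 1.42.0.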

Additional observations from a re-analysis of the deposited data

Results flagged for a closer look

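The log2 fold change of CKO over control differed between tissues for 3 chaperone genes in the interaction test of edgeR. Tissue, embryonic day, culture and the depth and intron share of the libraries cannot be told apart in this difference. The log2 effect in neurospheres exceeded that in brain by 0.42 for Manf, by 0.38 for Hyou1 and by 0.36 for Pdia6. Manf was 0.75 in neurospheres and 0.33 in brain, Hyou1 0.67 and 0.29, and Pdia6 0.69 and 0.33, with all 3 CKO libraries above all 3 controls in both tissues. These calls lay close to the threshold: with 1 of the 12 libraries left out, 0 of the 10 chaperones were called higher in 9 of the 12 fits, and the other 3 fits called 1, 2 and 3. With RLE size factors or a replicate block 2 were called higher, Manf and Hyou1, and with no filter on low counts 0. The ER chaperones were not alone in this difference. The same edgeR test also called 5 of 14 cytosolic heat shock genes, 3 of 10 mitochondrial chaperones and 7 of 16 cell cycle genes higher.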

How the results depend on the processing

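Of 987 log2 fold changes of single chaperones under an alternative, 969 kept their direction and 875 also their side of the threshold. Scaling by RLE size factors and uniquely placed exon reads left every count of called chaperones within 1.5 times. In brain, 0 chaperones were called higher without any 1 library, with exon-exon junction reads (added after the data were seen) or in the fit of all 12 libraries; all genes called numbered 3 to 36, 26 and 1 there, against 60 in the 6-library fit and 109 by DESeq2. In neurospheres, 0 to 8 chaperones were called higher and 0 to 1 lower without 1 library, with 0 to 5241 genes in all, against 3553. The fit of 12 libraries gave 1 lower and 5748 genes, and the one without both libraries numbered 1 gave 1 lower and 7373 genes. For the difference between tissues, the counts without 1 library were 0 to 3 higher, 0 to 1 lower and 846 to 4003 genes, against 1913 from all libraries; with no filter on low counts they were 0 higher, and without both libraries numbered 1, 1 lower and 4912 genes. Between tissues, called-lower counts were 0 to 1 without 1 library in control and in CKO comparisons, and 0 in the control comparison with no filter. Genes called on intron reads in brain numbered 0 to 29 without 1 library, 78 with no filter and 90 by DESeq2, against 42. In neurospheres these were 0 to 1834, 486 and 769, against 235, and 3857 without both libraries numbered 1, where 1 chaperone, Hsp90b1, was called higher.

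Whether replicate numbers pair the libraries was not settled, and the main fits left the numbers out. Same-numbered libraries had correlations of deviations of 0.413, 0.205 and -0.037 in brain and 0.257, -0.026 and 0.233 in neurospheres. Libraries of different numbers had -0.38 to 0.236 in brain and -0.33 to 0.216 in neurospheres. With a replicate block, 4 chaperones were called higher in brain, with 193 genes in all, 2 had a called difference between tissues, and genes called on intron reads were 128 in brain and 1339 in neurospheres.

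Directions turned only for values that were not called, and the cause was not tested. Dnajb9 stood at -0.114 in brain on 7 to 14 junction reads a library, and in the control tissue comparison it ranged from -0.028 to 0.208 without 1 library. The tissue difference of Calr ranged from -0.069 to 0.176 without 1 library and was -0.111 without both neurosphere libraries numbered 1. Without 1 library, brain intron values ranged from -0.043 to 0.329 for Hspa5, -0.038 to 0.157 for Calr, -0.286 to 0.130 for Dnajb9, -0.079 to 0.251 for Manf and -0.034 to 0.241 for Creld2. Neurosphere intron values ranged from -0.172 to 0.757 for Hspa5, -0.175 to 0.341 for Calr and -0.085 to 0.149 for Manf, and without both libraries numbered 1 they were -0.171 for Calr and -0.029 for Manf. Depth limits Sdf2l1, Creld2 and Dnajb9 in brain most, with 42 to 186 exon reads a library.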
